A study of Mus musculus with 16 samples.

Results

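The genes described here were the 10 claudins Cldn1, Cldn2, Cldn3, Cldn4, Cldn5, Cldn7, Cldn8, Cldn10, Cldn16 and Cldn19, picked by symbol out of the 31053 genes in the count tables and out of 35 genes there whose symbol begins with Cldn. Their unique molecular identifiers (UMIs, each standing for 1 captured RNA molecule) were summed over the cells of a class in a library and expressed as counts-per-million of that sum (CPM). The libraries came from kidneys of diabetic (DN) mice, BTBR animals homozygous for the ob mutation of the leptin gene, and of control BTBR mice with the wild-type gene, of both sexes, at 6 and 12 weeks of age, with 2 libraries for each of the 8 groups. Per the study's methods both genotypes also carried a ubiquitous membrane tdTomato/EGFP reporter and a podocyte-driven Cre, the papilla had been cut away, and proximal tubules had been thinned out on Percoll, so shares of cell classes do not describe the whole kidney.

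The 16 libraries held 116439 barcodes and 1267078476 UMIs, from 10510855 to 125551519 UMIs per library. Any pair of libraries had between 0 and 55 barcodes in common. The pattern of shared barcodes split them into a smaller set, replicate 1 of each of the 4 female groups with 10510855 to 21728793 UMIs, and a larger set of the other 12. After filtering, 86355 cells remained, of which 66725 fell in 17 classes named from marker genes that include no claudin, and 19630 stayed unnamed. No cluster met the rule for parietal epithelial cells, fibroblasts or urothelium.

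Claudins are membrane proteins of the tight junction. Their extracellular loops meet between neighbouring cells and set which ions and how much water pass through the gap between cells. The nephron is known for a different claudin set in each segment: Cldn2 forms a cation and water pore in the proximal tubule, Cldn10 a pore whose charge preference depends on the isoform, Cldn16 and Cldn19 are needed for calcium and magnesium uptake in the thick ascending limb, and Cldn3, Cldn4, Cldn7 and Cldn8 line the distal nephron and collecting duct. Cldn5 is the claudin of endothelial barriers, and Cldn1 is best known from the parietal cells of Bowman's capsule.

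On the GRCm38 assembly (GENCODE release M21), the members lay on 6 chromosomes. Cldn1 (16:26356642-26371841, minus strand) and Cldn16 (16:26463135-26482765, plus strand) were neighbours 91293 bases apart with 0 protein-coding genes between them. Cldn3 (5:134986214-134987472, plus) and Cldn4 (5:134945119-134946934, minus) were neighbours as well, 39279 bases apart with 0 protein-coding genes between them. Chromosome 16 also held Cldn5 (16:18776847-18778262, plus) and Cldn8 (16:88560828-88563183, minus). Cldn2 lay at X:139800828-139811386, Cldn7 at 11:69964779-69967885 and Cldn19 at 4:119255414-119262438, all on the plus strand. Genes annotated on the opposite strand overlapped Cldn3 (Wbscr25), Cldn10 (n-R5s51) and Cldn19 (Gm12927).

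Cldn10 (14:118787908-118875489, plus strand) has alternative first exons, and the encoded isoforms are known to differ in ion preference, one being typical of the proximal tubule and the other of the thick ascending limb. The 250 bases before each of its 2 starts in RefSeq (GRCm38.p6, plus strand, 5′ to 3′) are shown because Cldn10 was the only member over 100 CPM in both segments, and because reads taken from the 3′ end of a transcript cannot tell these starts apart. Capitals mark CpG dinucleotides. The starts were 67079 bases apart.
Cldn10 upstream start, chr14:118787621-118787870: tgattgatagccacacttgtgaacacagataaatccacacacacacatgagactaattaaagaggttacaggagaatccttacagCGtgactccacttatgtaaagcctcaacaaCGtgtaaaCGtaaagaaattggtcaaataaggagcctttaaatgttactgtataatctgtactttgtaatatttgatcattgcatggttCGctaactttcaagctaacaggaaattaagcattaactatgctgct
Cldn10 downstream start, chr14:118854700-118854949: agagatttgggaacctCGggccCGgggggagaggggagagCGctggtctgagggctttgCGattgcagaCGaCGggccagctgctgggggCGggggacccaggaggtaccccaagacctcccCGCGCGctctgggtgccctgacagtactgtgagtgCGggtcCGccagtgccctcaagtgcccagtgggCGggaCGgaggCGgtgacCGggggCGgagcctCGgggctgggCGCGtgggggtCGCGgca
The upstream window held 4 CpG and 36% G or C, and the downstream window held 22 CpG and 72.4%. The median over the 32851 RefSeq promoter windows of this length was 6 CpG, and 86.7% of them held 22 or fewer. Cldn10 counts below sum over both starts.

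The members differed in how many classes they were high in. Cldn16 was over 20 CPM in 1 class, the ascending limb of the loop of Henle (aLOH), and Cldn1 in 1, the podocytes. Cldn19 passed 20 CPM in 3 classes, Cldn2 and Cldn5 in 4, Cldn10 in 6, Cldn4 in 7, and Cldn3, Cldn7 and Cldn8 in 8 of 17, the same 8 for these 3 genes. Read by class, mesangial cells, smooth muscle and renin cells and immune cells had 0 of the 10 claudins over 20 CPM, while the descending limb (dLOH) had 7 and the aLOH and mitotic cells 6 each. The count for the dLOH includes Cldn10, whose mean of 29.7 CPM there rests on 1 library at 234 CPM (DN male 12 weeks replicate 1), the median over libraries being 12.8 CPM. Since tags from the 3′ end are captured with unequal efficiency from one gene to the next, these counts over a shared cut of 20 CPM depend on capture too. Below, levels were compared only within a gene, between classes.

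**Figure D1:**
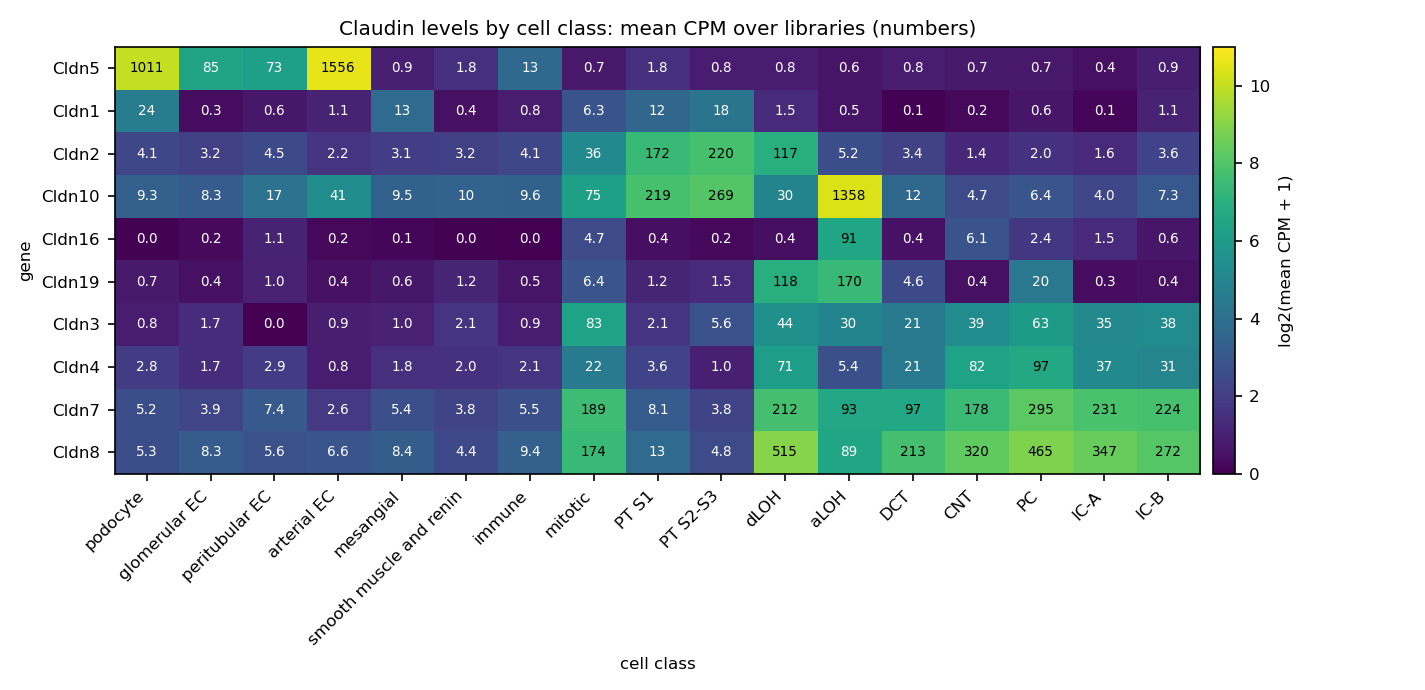
Mean CPM over libraries (printed in each cell, colour on a log2 scale) of the 10 claudins, in rows, in the 17 named cell classes, in columns. Cldn5 stood out in arterial endothelial cells (1556) and podocytes (1011), Cldn10 in the aLOH (1358), and Cldn8 in the dLOH (515) and principal cells (465).

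Cldn5, the endothelial barrier claudin, was highest in arterial endothelial cells (EC) and next in podocytes, with far lower levels in the capillaries of the glomerulus. Arterial EC held 1556 ± 419 CPM (SD, n = 16), with a lowest library of 850.3, a median of 1492 and a highest of 2473. Podocytes held 1011 ± 178 CPM (n = 15 libraries with at least 10 podocytes; 770.3, 979.6 and 1381 CPM), glomerular EC 84.8 ± 27.9 (n = 16) and peritubular EC 72.6 ± 65.1 (n = 13). The ranges of arterial EC and podocytes overlapped, but within libraries arterial EC were higher in 13 of 15, by 0.62 ± 0.12 (SE) on the log2(CPM + 1) scale (exact sign-flip permutation test over libraries, two-sided, adjusted p = 0.00146 over the 40 comparisons of neighbouring classes). The 2 libraries in which podocytes were higher both belonged to the smaller barcode set, whose mean Cldn5 was 1103 CPM in podocytes (n = 3) and 1075 in arterial EC (n = 4). Podocytes exceeded glomerular EC in 15 of 15 libraries, by 3.61 ± 0.13 on the log2 scale (adjusted p = 0.000349, from the smallest p that 15 libraries allow, 6.1e-05). Glomerular and peritubular EC did not differ beyond their spread (difference 0.90 ± 0.58, n = 13, adjusted p = 0.194).

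The 6 general endothelial markers summed to 0 to 39.1 CPM in the podocyte libraries, against 2749 to 4834 in arterial EC. Doublets of podocytes with endothelial cells had not been removed, since the doublet step acted between tubular and non-tubular cells. The 7 markers of glomerular EC summed to 1515 to 3238 CPM in podocytes, against 9542 to 27877 in glomerular EC, and the 8 arterial markers to 1103 to 2904, against 4013 to 5481 in arterial EC. Of these 8, Sema3g was itself highest in podocytes, at a mean of 1689 CPM. The part of these transcripts in the podocyte value was not tested. With each cell thinned to 1000 UMIs, a Cldn5 UMI was seen in 62.2% of podocytes, 47.5% of arterial EC, 5.70% of glomerular EC and 4.00% of peritubular EC, against 0.50% of immune cells, which should lack the gene (median depth before thinning 7009, 4166, 3444, 2864.5 and 3935 UMIs). The order of these shares for podocytes and arterial EC was the reverse of the order of their CPM. The arterial class was itself uneven. Of its 2 clusters, cluster 30 (559 cells) held 3093 CPM of Cldn5 over its summed cells and cluster 14 (1861 cells) 883.7, and cluster 30 was the higher in 14 of the 14 libraries with at least 10 cells in both. Cluster 14 was the one with the water channel gene Aqp1 (3087 against 51.1 CPM), and it also held more Cldn10 (43.9 against 8.81 CPM; higher in 13 of 14 libraries).

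Cldn1 was low in every class. Podocytes led with 23.6 ± 19.5 CPM (n = 15; lowest 0, median 16.6, highest 68.0), from 195 UMIs in all, followed by the later proximal tubule (PT S2-S3, 17.5 ± 10.4, n = 16), mesangial cells (13.2 ± 8.43) and the early proximal tubule (PT S1, 11.6 ± 6.24). None of these 3 neighbouring steps differed beyond the spread between libraries (exact sign-flip permutation tests, adjusted p = 0.998, 0.116 and 0.90), and only the step from PT S1 to mitotic cells did (1.55 ± 0.36 on the log2 scale, adjusted p = 0.00279). In 2 of the 15 podocyte libraries Cldn1 was at 0. Cldn1 was unevenly spread within PT S2-S3, where cluster 20 (1202 cells) held 39.5 CPM and the largest cluster (cluster 3, 5598 cells) 16.5, with cluster 20 higher in 12 of 15 libraries. Cluster 20 also held 41.5 CPM of Cldn3, against 0.893 CPM in cluster 3 (higher in 15 of 15), and less Cldn10 (147 against 295 CPM; lower in 15 of 15). Of the markers used to name the descending limb, it held more Cryab (1555 against 7.03 CPM) and Aqp1 (669 against 184), while Fst was low in both (0.628 and 0.232).

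Cldn2, the cation and water pore, marked the proximal tubule and the start of the loop. PT S2-S3 held 219.8 ± 69.96 CPM (115.5, 209.0 and 357.1 as lowest, median and highest of 16 libraries), PT S1 172 ± 56.3 and the dLOH 117 ± 35.8. The steps from PT S2-S3 to PT S1 (higher in 15 of 16 libraries, by 0.35 ± 0.045 on the log2 scale) and from PT S1 to dLOH (13 of 16, 0.55 ± 0.13) both passed the exact sign-flip permutation test (adjusted p = 0.000349 and 0.00224). The call from PT S2-S3 to PT S1 was lost at the finer clustering. Clusters of the 2 classes interleaved, with 254 CPM in cluster 3 and 170 in cluster 11 of PT S2-S3. In PT S1, cluster 13 held 219 CPM and cluster 6 146. Beyond the dLOH the level dropped to 36.2 ± 25.2 CPM in mitotic cells and 5.17 ± 3.98 in the aLOH. In thinned cells a Cldn2 UMI was found in 19.3% of PT S2-S3 cells, 14.9% of PT S1 cells and 9.22% of dLOH cells, and in 0.37% of immune cells.

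Cldn10 was far highest in the aLOH and also present along the whole proximal tubule. The aLOH held 1358 ± 431 CPM (752.2, 1351 and 1922), PT S2-S3 269 ± 86.8, PT S1 219 ± 76.6, mitotic cells 74.6 ± 51.7 and arterial EC 41.5 ± 22.8. The aLOH exceeded PT S2-S3 in 16 of 16 libraries, by 2.33 ± 0.18 on the log2 scale (exact sign-flip permutation test, adjusted p = 0.000305). A Cldn10 UMI was found in 60.4% of thinned aLOH cells, 22.5% of PT S2-S3 cells and 19.8% of PT S1 cells, against 1.25% of immune cells. Which first exon these transcripts used cannot be read from the data.

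Cldn16 and Cldn19, whose loss causes hereditary magnesium and calcium wasting, shared the aLOH as their first class but differed in the next. Cldn16 held 90.8 ± 25.4 CPM in the aLOH (56.3, 86.9 and 137), and the connecting tubule (CNT) came next with 6.13 ± 3.01. The step between them was 3.82 ± 0.25 on the log2 scale and was seen in 16 of 16 libraries (exact sign-flip permutation test, adjusted p = 0.000305). Cldn19 held 170 ± 60.2 CPM in the aLOH (87.9, 164 and 254), 118 ± 39.6 in the dLOH and 20.3 ± 8.83 in principal cells (PC), and both of these steps were seen in 16 of 16 libraries (0.50 ± 0.089 and 2.53 ± 0.17, adjusted p = 0.000305 each). In thinned cells Cldn19 was detected in 15.1% of aLOH and 11.2% of dLOH cells against 0.25% of immune cells, and Cldn16 in 7.80% of aLOH cells.

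**Figure D2:**
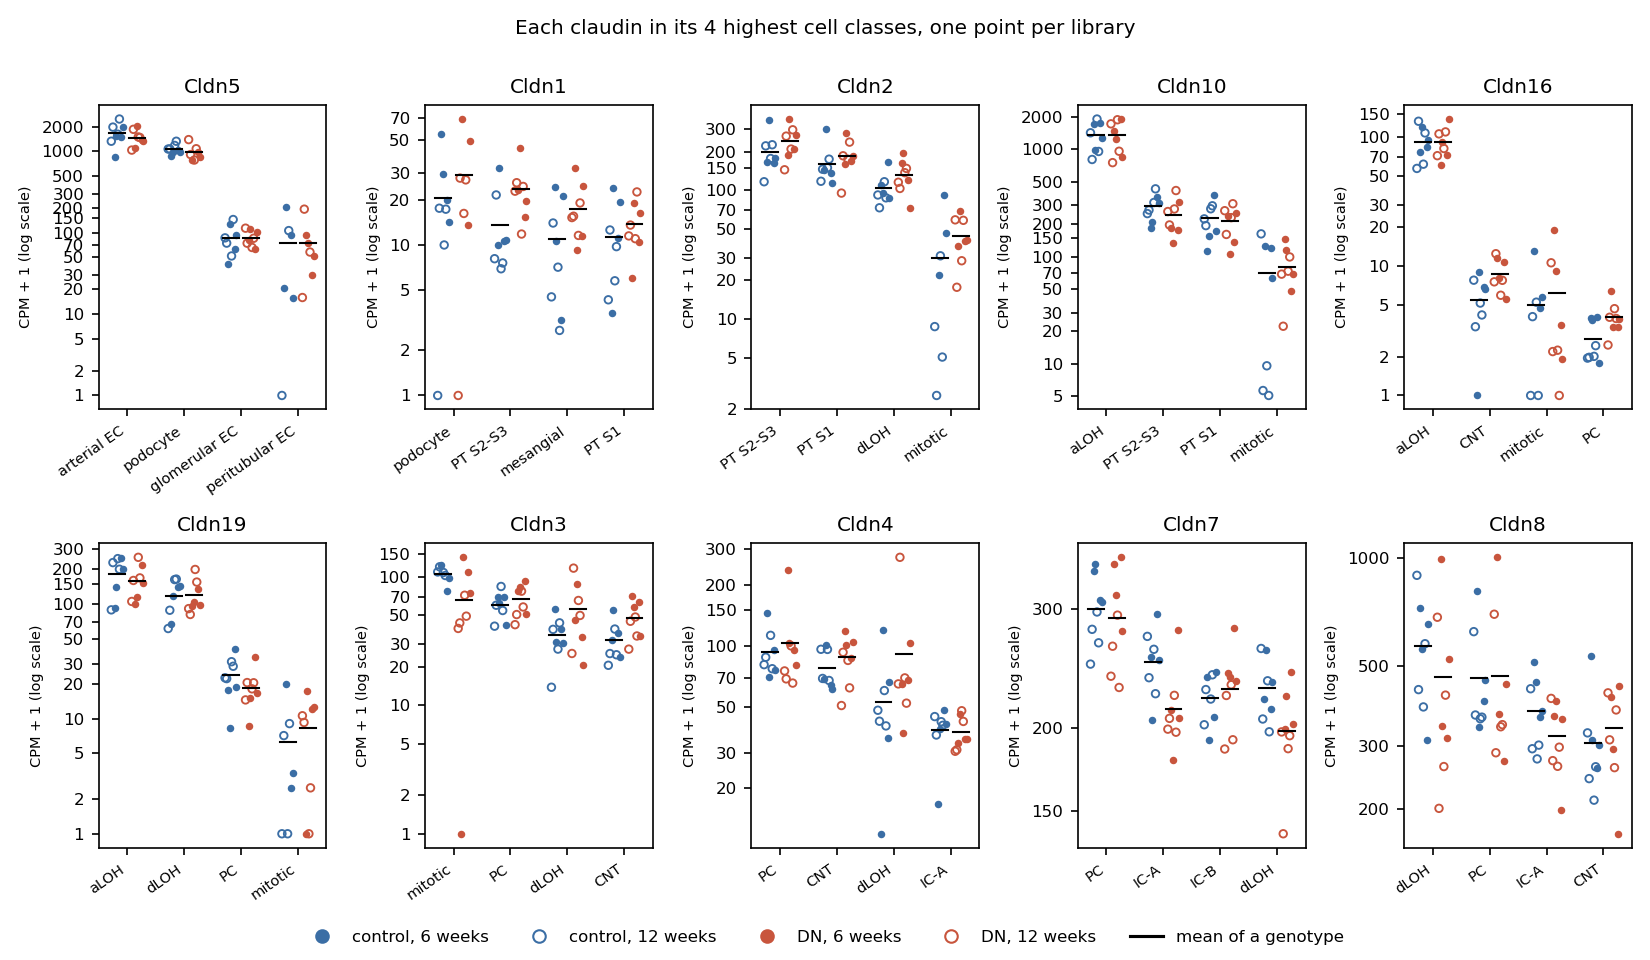
CPM + 1 (log axis) of each claudin in its 4 highest classes, with 1 point per library and lines at the mean of each genotype; filled points are 6 weeks, open points 12 weeks, blue control and red DN. Control and DN points overlapped in every panel shown.

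Within the aLOH, Cldn16 was detected less often in cells that carried Cldn10. At 1000 UMIs per cell, 2368 aLOH cells had a Cldn10 UMI and 1556 had none. Averaged over 16 libraries, a Cldn16 UMI was found in 5.47% ± 3.46 (SD) of the former and 12.0% ± 5.32 of the latter, a difference of -6.57 ± 6.35 percentage points, with the lower share in Cldn10-positive cells in 13 of 16 libraries and the higher in 2. By genotype, the Cldn16 difference ran from -22.9 to -0.340 points in control and from -7.34 to 0.725 in DN libraries. Both libraries with the higher share were DN, and the genotypes were not compared in a test. For Cldn19 the shares were 17.6% ± 6.88 and 14.2% ± 4.83, a difference of 3.42 ± 5.89 points, higher in Cldn10-positive cells in 11 of 16 libraries. The Cldn19 difference was 0.73 ± 5.11 points without doublet removal (higher in 9 and lower in 6 libraries) and 1.75 ± 6.45 at the finer clustering. It was 5.50 ± 6.85 at 2000 UMIs per cell (higher in 13 and lower in 2) and 5.12 ± 6.46 in the larger barcode set (higher in 8 and lower in 4). The Cldn19 difference was thus smaller than its spread between libraries in each case. These are descriptions of cells within libraries and carry no test.

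The size of the Cldn16 difference depended on depth and on doublet removal. Without doublet removal it was -4.57 ± 5.46 points, smaller than its spread, with the lower share in 13 and the higher in 3 libraries. At 2000 UMIs per cell it was -16.8 ± 8.05 points (10.9% against 27.7%), with the lower share in 16 of 16 libraries, and in the larger barcode set alone it was -6.94 ± 2.89 points and lower in 12 of 12. Each of the 6 aLOH marker transcripts had a higher mean share in the Cldn10-positive cells. Ptger3, a prostaglandin E2 receptor, was found in 30.4% against 15.6% of cells and Wfdc15b in 86.5% against 69.5%, each higher in 16 of 16 libraries, whereas Slc12a1, the sodium-potassium-chloride cotransporter that defines the segment, differed by 0.655 ± 4.21 points (96.5% against 95.8%). Umod, the uromodulin gene, was found in 95.1% against 90.1%, higher in 13 of 16 libraries, and the differences of Tmem72 (4.57 ± 9.64 points) and Ppp1r1a (4.12 ± 9.71 points) were within their spread.

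**Figure D3:**
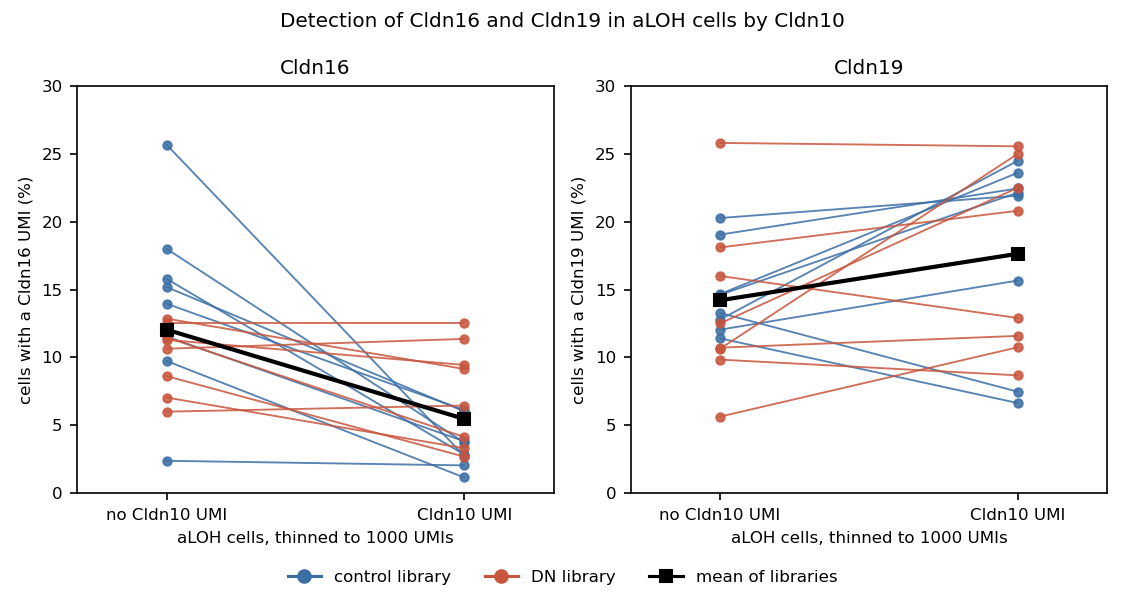
Share of aLOH cells with a Cldn16 UMI (left) or a Cldn19 UMI (right), in percent, among cells without and with a Cldn10 UMI, each cell thinned to 1000 UMIs; thin lines join the values of 1 library, blue control and red DN, and black squares are means over 16 libraries. The mean Cldn16 share was 12.0% without and 5.47% with Cldn10, and the mean Cldn19 share 14.2% and 17.6%.

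The same pair of genes separated libraries by their replicate number. In the aLOH, Cldn10 ranged from 1429.8 to 1922 CPM in the 8 libraries numbered 1 and from 752.2 to 1272 CPM in the 8 numbered 2, without overlap. Cldn16 went the other way, from 56.3 to 82.9 CPM in libraries numbered 1 and from 90.8 to 137 CPM in those numbered 2, again without overlap. The split held in the 4 male groups, whose libraries all belong to the larger barcode set, so it did not follow that set. Cldn2 in PT S2-S3 was lower in the library numbered 1 in 8 of 8 groups, and so was Cldn1. Other values followed the barcode set. Cldn8 in PC ranged from 622 to 1000.3 CPM in the 4 libraries of the smaller set and from 270.6 to 456.7 in the larger set. Cldn19 in the aLOH ranged from 87.9 to 104 CPM in the smaller and from 115 to 254 in the larger set. Cldn5 in arterial EC ranged from 850.3 to 1319 CPM in the smaller and from 1339 to 2473 in the larger set. None of these 3 ranges overlapped between the sets. What the replicate numbers stand for is not given in the sources used here, and both genotypes were split alike.

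The dLOH class was made of 2 clusters that differed in their claudins. Cluster 21 (1150 cells) expressed Aqp1 (5524 CPM) and Fst (1585 CPM), and cluster 36 (475 cells) the urea transporter gene Slc14a2 (216 against 10.7 CPM) with little Aqp1 (40.8 CPM). Cldn2 was 170 CPM in cluster 21 and 20.3 in cluster 36, and higher in cluster 21 in 14 of 14 libraries. Cldn8 went the other way, 309.7 against 778 CPM, higher in cluster 36 in 14 of 14. Cldn19 followed Cldn8 (95.5 against 209 CPM; 13 of 14 libraries) and so did Cldn3 (23.1 against 69.2 CPM; 12 of 14), while Cldn4 was split evenly (63.6 against 62.5 CPM; 7 of 14 each way). Claudins, their junction partners and their regulators had been left out of the genes used for clustering, but clusters of the same cells are no independent samples, so these differences carry no test.

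**Figure D4:**
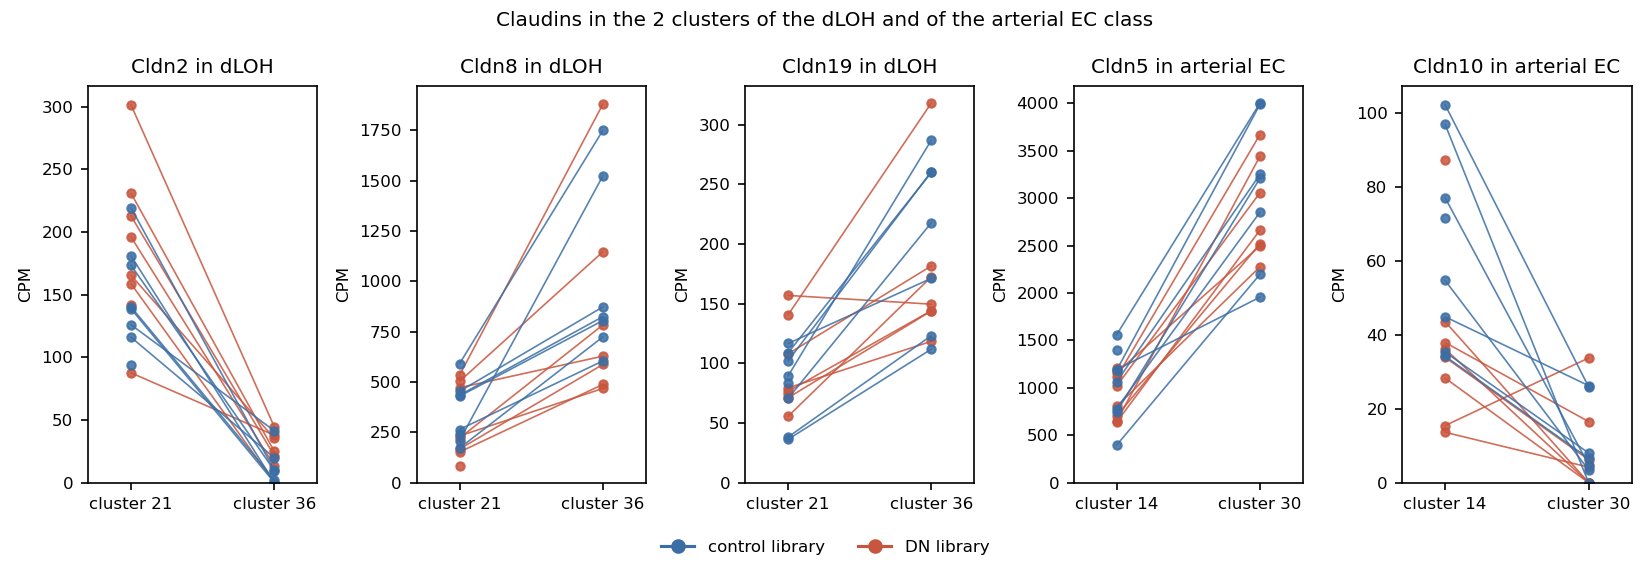
CPM of 3 claudins in the dLOH clusters 21 and 36 and of 2 claudins in the arterial EC clusters 14 and 30; each line joins the values of 1 library with at least 10 cells in both clusters, blue control and red DN. Cldn2 fell and Cldn8 rose from cluster 21 to 36 in 14 of 14 libraries, and Cldn5 rose from cluster 14 to 30 in 14 of 14.

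The 4 distal claudins Cldn3, Cldn4, Cldn7 and Cldn8 were all over 20 CPM in the distal convoluted tubule (DCT), CNT, PC and both intercalated classes (IC-A, IC-B). Cldn8, a chloride-selective claudin of the collecting duct, was highest in the dLOH (515 ± 227 CPM; 200.2, 475 and 989) and PC (465 ± 207; 270.6, 365 and 1000.3), which did not differ beyond their spread (0.12 ± 0.093 on the log2 scale, exact sign-flip permutation test, adjusted p = 0.281). IC-A (347 ± 81.6), CNT (320.0 ± 94.1), IC-B (272 ± 78.1) and DCT (213 ± 43.3) followed, and Cldn8 was down to 89.4 ± 33.6 CPM in the aLOH. Among PC, cluster 12 (2216 cells) held 523 CPM and cluster 2 (5499 cells) 298.

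Cldn7, a claudin known from the basolateral as well as the junctional membrane, was spread over the distal classes. PC held 295 ± 40.9 CPM (228.4, 295 and 358), IC-A 231 ± 34.2, IC-B 224 ± 24.5 and dLOH 212 ± 30.6. The step from PC to IC-A passed the exact sign-flip permutation test (15 of 16 libraries, 0.35 ± 0.063 on the log2 scale, adjusted p = 0.000458), and the next 3 steps did not (adjusted p = 0.621, 0.316 and 0.168). Cldn4, the partner of Cldn8 in chloride permeability, was also led by PC (97.4 ± 41.7 CPM; 64.8, 83.6 and 234), with CNT at 82.1 ± 19.5 and dLOH at 71.5 ± 59.2, neither of these steps being resolved (adjusted p = 0.155 and 0.0842). Cldn4 dropped to 5.4 CPM in the aLOH. Cldn3 was nominally highest in mitotic cells (83.4 ± 38.2 CPM, n = 15; 0, 96.1 and 141) and next in PC (62.6 ± 16.2 CPM), a step that was not resolved (adjusted p = 0.998). The mitotic class was a mixture of lineages, with CNT markers summing to a median of 20288 CPM in control and 13352 in DN libraries and proximal tubule markers to 199 and 2719.

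Over all members, 23 of the 40 steps between neighbouring classes passed the exact sign-flip permutation test. The order of classes was set by the mean CPM of these same libraries. Several steps, passing ones among them, involved the mixed mitotic class. Across the 17 class means, a description over points that share libraries, Cldn7 and Cldn8 had the most similar patterns among the members (Pearson r = 0.984 on the log2 scale). Among the 10869 genes over 20 CPM in some class, the gene most like each claudin was Rab25 for Cldn7 (r = 0.989), Bdh2 for Cldn2 (0.989), Sema3g for Cldn5 (0.986), Grhl2 for Cldn8 (0.986), Lipg for Cldn19 (0.966), Cgn for Cldn3 (0.964), Krt18 for Cldn4 (0.960), Car4 for Cldn10 (0.930), Enox1 for Cldn16 (0.886) and Snx31 for Cldn1 (0.877). Grhl2 was on the list of claudin regulators and Cgn, which encodes cingulin, on that of junction partners, while Sema3g was one of the markers used to name arterial EC. The second genes were Ap1m2 for Cldn7 (0.989), Bnc2 for Cldn2 (0.983), Nebl for Cldn5 (0.970), Cldn7 for Cldn8, Chst9 for Cldn19 (0.942), Esrp1 for Cldn3 (0.961), Cldn8 for Cldn4 (0.957), the sodium-proton exchanger gene Slc9a3 for Cldn10 (0.889), Tmem207 for Cldn16 (0.862) and Cryzl2 for Cldn1 (0.863).

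DN and control kidneys were compared class by class. In edgeR's quasi-likelihood test on the summed counts, adjusted over all genes of a class, 0 of 79 claudin tests passed at 6 weeks, 0 of 78 at 12 weeks and 0 of 78 for the mean of both ages, where 0.0974%, 0.377% and 0.94% of all gene tests passed. At an unadjusted p under 0.05 there were 11, 17 and 18 claudin tests, which is 13.9%, 21.8% and 23.1% of them against 3.70%, 5.60% and 7.64% of all gene tests, and the lowest adjusted p was 0.511, 0.227 and 0.0558. The paired edgeR fit described below called Cldn1 in its own highest class, podocytes (adjusted p = 0.0358). In the unpaired fit none of the 10 passed in their own highest class. The fitted differences (DN minus control, log2, mean of both ages, ± SE) were 0.96 ± 0.35 for Cldn1 in podocytes, -0.50 ± 0.25 for Cldn3 in mitotic cells, 0.12 ± 0.21 for Cldn4 in PC, 0.04 ± 0.31 for Cldn10 and 0.012 ± 0.16 for Cldn16 in the aLOH, 0.0059 ± 0.11 for Cldn7 in PC, -0.16 ± 0.18 for Cldn5 in arterial EC, -0.16 ± 0.18 for Cldn19 in the aLOH, 0.23 ± 0.16 for Cldn2 in PT S2-S3 and -0.26 ± 0.28 for Cldn8 in the dLOH. The limits at 2 SE on either side were -0.21 to 0.22 for Cldn7 in PC and -0.58 to 0.65 for Cldn10 in the aLOH. They show how much smaller a difference this unpaired fit could resolve for one than for the other. In the paired fit described next, the SEs were 0.059 for Cldn7 in PC and 0.092 for Cldn10 in the aLOH.

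Control and DN libraries of the same sex, age and replicate number varied together, so a paired fit with the replicate block was made as well. It passed 3 of 79 claudin tests at 6 weeks (1 higher and 2 lower in DN), 5 of 78 at 12 weeks (5 higher) and 12 of 78 for the mean of both ages (6 higher and 6 lower), with 1.22%, 2.98% and 5.23% of all gene tests passing. For Cldn10 in the aLOH the SE went from 0.31 in the unpaired to 0.092 in the paired fit. Every claudin call given next rests on this paired fit, and unpaired values are given with them. The median fitted difference of the 78 claudin tests was -0.017 on the log2 scale in the paired fit. Of the 12 calls, 2 were in the CNT, 2 in PT S1, 2 in PT S2-S3, and 1 each in DCT, IC-B, aLOH, arterial EC, dLOH and podocytes.

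In the CNT, Cldn3 and Cldn7 were higher in DN. Cldn3 ranged over 19.5, 27.6 and 54.3 CPM (lowest, median and highest) in 8 control libraries and over 26.3, 45.8 and 69.2 in 8 DN libraries. The groups overlapped, but the DN library was the higher in 8 of 8 pairs, by 0.48 ± 0.089 on the log2 scale (paired edgeR adjusted p = 0.00174; unpaired 0.50 ± 0.17, adjusted p = 0.204). Cldn7 ranged over 126, 149.5 and 229 CPM in control and over 148, 202 and 242 in DN libraries, higher in 7 of 8 pairs, by 0.33 ± 0.070 (paired adjusted p = 0.00468; unpaired 0.33 ± 0.12, adjusted p = 0.259). Both calls were kept whichever pair was left out. Of the 2 clusters of the class, cluster 43 (209 cells from 2 libraries) was 100% control and held 22.3 CPM of Cldn3 and 150.005 of Cldn7, against 38.2 and 170 in cluster 4 (4433 cells, 62.5% control). Cluster 0 (10686 cells, median 614 UMIs per cell, 75.0% control) scored highest for CNT markers but stayed unnamed. It was outside this comparison and held 25.3 CPM of Cldn3 and 145 of Cldn7. The 8 PC markers summed to 4815, 6151 and 10081 CPM in control and 5709, 6878 and 9620 in DN libraries of the CNT class, and the 6 IC-B markers to 200.3, 256 and 644 CPM in control and 291, 415 and 655 in DN. The part of these clusters and markers in the result was not tested.

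In PT S2-S3, Cldn1 was higher in DN, though it stayed low. Control libraries ranged over 5.96, 9.34 and 31.8 CPM and DN libraries over 10.9, 22.1 and 43.0, with overlap, and the DN library was higher in 8 of 8 pairs, by 0.80 ± 0.16 on the log2 scale (paired edgeR adjusted p = 0.0107; unpaired 0.81 ± 0.21, adjusted p = 0.0558). The paired call was kept whichever pair was left out, and missed the threshold in the larger barcode set alone (0.73, adjusted p = 0.0511). In the unpaired fit the call appeared once control female 12 weeks replicate 2 (0.98), control female 6 weeks replicate 2 (0.96) or DN female 6 weeks replicate 1 was left out. The difference was widest in cluster 20, at 17.8 ± 11.9 CPM in 7 control and 45.8 ± 17.0 in 8 DN libraries, and smaller in cluster 3, at 14.5 ± 8.89 and 18.7 ± 7.21. Unnamed cluster 35 scored highest for proximal tubule markers but was outside the class. Its Cldn1 was not higher in DN, at 60.6 ± 23.6 CPM in 5 control and 54.1 ± 19.1 in 8 DN libraries. Cluster 20 made up a median of 5.68% of the class in control and 13.3% in DN libraries. Cluster 37 (462 cells, 99.1% control, Cldn1 at 9.13 CPM) made up 64.9% of the class in control male 6 weeks replicate 2 and at most 0.63% in DN libraries. The part of these clusters in the result was not tested. Markers of parietal epithelial cells, a cell type known for Cldn1, summed to 0, 5.22 and 12.2 CPM in control and to 10.2, 38.2 and 78.9 CPM in DN libraries of PT S2-S3, with 5 of 5 markers detected. Their part in the result was not tested.

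In the aLOH, Cldn8 was lower in DN. Control libraries ranged from 70.6 to 157 CPM with a median of 104 and DN libraries from 40.9 to 146 with a median of 67.7, lower in 7 of 8 pairs, by -0.57 ± 0.11 on the log2 scale (paired edgeR adjusted p = 0.00384; unpaired -0.48 ± 0.23, adjusted p = 0.635). PC markers moved along, from 193, 363 and 1034 CPM in control to 84.1, 174 and 571 in DN libraries of that class (8 of 8 markers detected); their part in the result was not tested. Cldn8 was lower in IC-B too (-0.26 ± 0.062, paired adjusted p = 0.0185; 6 of 8 pairs; unpaired -0.25 ± 0.17, adjusted p > 0.99), a call that was lost when any of 4 pairs was left out. At 6 weeks alone the paired difference of Cldn8 in IC-B was -0.44 ± 0.089 (adjusted p = 0.0188; unpaired -0.41 ± 0.24, adjusted p > 0.99). Without passing, the paired Cldn8 difference over both ages was also negative in classes with little Cldn8. It was -0.82 ± 0.35 in mesangial cells, -0.70 ± 0.39 in glomerular EC, -0.55 ± 0.37 in arterial EC and -0.63 ± 0.20 in PT S2-S3. The dLOH had -0.33 ± 0.11, while the CNT (0.13 ± 0.097) and DCT (0.050 ± 0.079) were positive. A fall of Cldn8 was thus not particular to the aLOH.

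**Figure D5:**
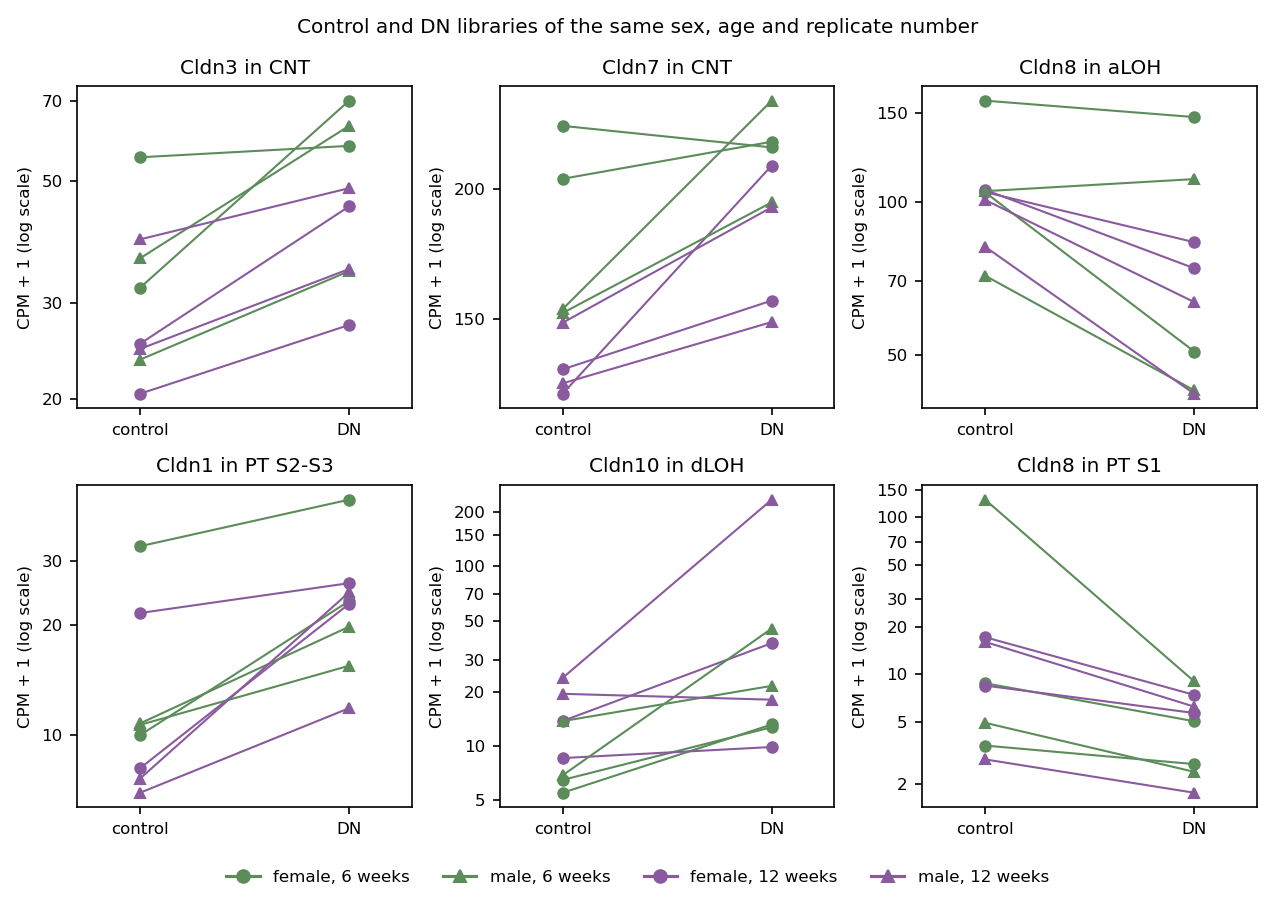
CPM + 1 (log axes) of 6 claudin and class combinations that passed the paired test; each line joins the control and the DN library of the same sex, age and replicate number, circles female and triangles male, green 6 weeks and purple 12 weeks. Cldn3 in CNT and Cldn1 in PT S2-S3 rose in 8 of 8 pairs and Cldn8 in PT S1 fell in 8 of 8.

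In the dLOH, Cldn10 was at 4.51 to 23.0 CPM in control (median 10.2) and at 8.90 to 234 CPM in DN libraries (median 18.9), higher in 7 of 8 pairs, by 2.09 ± 0.32 on the log2 scale (paired edgeR adjusted p = 0.00163; unpaired 2.14 ± 0.45, adjusted p = 0.0780). The value of 234 CPM came from 1 library, DN male 12 weeks replicate 1. Without its pair the difference was 1.32 and the call was lost (adjusted p = 0.0501), and in the unpaired fit leaving out that library gave 1.23. Control levels were close to those of immune cells (9.64 ± 7.12 CPM), and thinned dLOH cells carried Cldn10 in 2.14% of cases, against 1.25% of immune cells. Immune cells with a tubular marker had been dropped as doublets, so immune values can understate the background. Markers of the aLOH, the class richest in Cldn10, summed to 161, 231 and 709 CPM in control and to 78.3, 242 and 739 in DN libraries of the dLOH class; their part in the result was not tested.

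In PT S1, Cldn7 and Cldn8, which belong to the distal nephron, were counted at low levels and were lower in DN. Cldn8 ranged from 1.88 to 129 CPM in control (median 7.64) and from 0.763 to 8.02 in DN libraries (median 4.35), lower in 8 of 8 pairs, by -1.99 ± 0.32 on the log2 scale (paired edgeR adjusted p = 0.00348; unpaired -2.10 ± 0.66, adjusted p = 0.231). Cldn7 ranged from 0 to 62.7 CPM in control and from 0.763 to 4.96 in DN libraries, lower in 7 of 8 pairs, by -2.11 ± 0.35 (paired adjusted p = 0.00387; unpaired -2.23 ± 0.55, adjusted p = 0.0983). Both highest values came from 1 library, control male 6 weeks replicate 2, and without it the unpaired differences were -0.83 for Cldn8 and -1.27 for Cldn7. Both paired calls were kept whichever pair was left out and in the larger barcode set alone (adjusted p = 0.0199 for Cldn8 and 0.00836 for Cldn7), and without control male 6 weeks replicate 1 both passed in the unpaired fit as well. Thinned PT S1 cells carried Cldn8 in 0.79% and Cldn7 in 0.65% of cases, next to 0.62% and 0.50% of immune cells, from which cells with a tubular marker had been dropped. PC markers summed to 60.5, 237 and 2302 CPM in control and to 52.4, 121 and 205 in DN libraries of PT S1; their part in the result was not tested.

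Apart from Cldn10 in arterial EC, the other paired calls concerned low levels. Cldn19 in the DCT (control median 3.002 CPM, DN 5.61) was higher by 1.56 ± 0.33, in 5 of 8 pairs only, and in PT S2-S3 (1.23 and 0.522 CPM) lower by -1.30 ± 0.32, in 8 of 8 (paired edgeR adjusted p = 0.0181 and 0.0313; unpaired 0.341 and 0.319). Cldn10 in arterial EC was lower by -0.83 ± 0.20 in 6 of 8 pairs (28.1, 44.1 and 80.7 CPM in control, 10.2, 27.7 and 85.99 in DN; paired adjusted p = 0.0496, unpaired 0.898). In that class the 6 aLOH markers had a median of 65.8 CPM in control and 39.3 in DN libraries and the 8 smooth muscle and renin markers 71.9 and 197, and their part in the result was not tested. The paired Cldn10 difference was also negative, without passing, in glomerular EC (-0.83 ± 0.26) and mesangial cells (-0.66 ± 0.29). It was positive in mitotic cells (0.65 ± 0.42) and, as given above, in the dLOH. Cldn1 in podocytes was higher by 0.93 ± 0.28 in 5 of 7 pairs (control median 16.5, DN 26.2 CPM; paired adjusted p = 0.0358, unpaired 0.294). Each of these 4 paired calls was lost when any of 3 to 6 single pairs was left out. Parietal markers in the podocyte class were level, at a median of 181 CPM in control and 169 in DN libraries.

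At single ages the paired fit added Cldn16 in PC at 12 weeks (1.48 ± 0.43 on the log2 scale, adjusted p = 0.0458, unpaired 0.244), from a level of 0.947 to 1.43 CPM in control and 1.46 to 3.70 in DN libraries of that age (over both ages higher in 6 of 8 pairs), and Cldn3 in PC at 6 weeks (0.38 ± 0.087, adjusted p = 0.0305, unpaired adjusted p > 0.99; over both ages higher in 6 of 8 pairs). The 6 IC-B markers summed to 235, 348 and 697 CPM in control and to 640, 1017 and 1907 in DN libraries of the PC class, and their part in the PC results was not tested. It repeated Cldn10 in the dLOH, Cldn3 and Cldn7 in the CNT and Cldn1 in PT S2-S3 at 12 weeks, and Cldn8 in PT S1 and IC-B at 6 weeks. In the unpaired edgeR fit the adjusted p of these was 0.227 for Cldn10, 0.590 for Cldn3, 0.584 for Cldn7 and 0.239 for Cldn1 at 12 weeks, and 0.609 for Cldn8 in PT S1 at 6 weeks. These calls do not show that a claudin responded at one age and not at the other. The difference between the ages was tested, and 0 of 78 claudin tests passed in the unpaired edgeR fit and 0 of 78 in the paired fit, where 0% and 0.0352% of all gene tests passed. At an unadjusted p under 0.05 there were 4 and 16 claudin tests, 5.13% and 20.5% of them, against 1.37% and 4.76% of all gene tests.

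Between 6 and 12 weeks, 0 of 78 claudin tests passed in control kidneys and 0 of 78 in DN kidneys, as did 0% and 0% of all gene tests in the same edgeR fit. There were 8 claudin tests in each genotype at an unadjusted p under 0.05, or 10.3% of them, against 2.87% of all gene tests in control and 2.70% in DN kidneys. In control kidneys the lowest adjusted p was 0.257, for Cldn2 in mitotic cells (-2.91 ± 0.71 on the log2 scale from 6 to 12 weeks), a class whose proximal tubule markers ranged from 100.2 to 5512 CPM between control libraries.

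Of the proteins that hold claudins at the junction, 22 partner genes (junctional scaffold proteins, cingulins, occludin relatives and junctional adhesion molecules) gave 236 tests for the mean of both ages, with 0 passing in the unpaired edgeR fit and 12 of 237 (7 higher, 5 lower) in the paired fit, a share near the 5.23% of all gene tests that passed there. The 9 genes known to regulate claudins gave 0 of 90 and 7 of 90 (5 higher, 2 lower). The genes named next passed in the paired fit alone. In PC, the paired fit called Cgnl1, the paracingulin gene, higher (0.40 ± 0.067, adjusted p = 0.000881), Cgn higher (0.23 ± 0.062, adjusted p = 0.0231) and Cxadr, a junctional virus receptor, lower (-0.28 ± 0.062, adjusted p = 0.00732). In IC-B Cxadr was higher (0.50 ± 0.063, adjusted p = 2.3e-05) and in IC-A as well (0.40 ± 0.077, adjusted p = 0.000619), so this partner had opposite fitted signs in neighbouring cells of the collecting duct. The IC-B markers that moved in the PC class, given with Cldn16, stand beside these PC values too. Klhl3, which encodes the adaptor that marks WNK kinases for degradation, was higher in PC (0.36 ± 0.095, adjusted p = 0.0221) and PT S2-S3 (0.61 ± 0.096, adjusted p = 0.00337).

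In the aLOH, Casr, the calcium-sensing receptor gene known to restrain Cldn16 through Cldn14, was lower in the paired edgeR fit (-0.37 ± 0.087, adjusted p = 0.0145; unpaired -0.38 ± 0.26, adjusted p = 0.881), while Cldn16 itself differed by 0.014 ± 0.11 (adjusted p = 0.977). Epcam, which stabilises Cldn7, was lower in PT S1 (-1.66 ± 0.38, adjusted p = 0.0261; unpaired -1.90 ± 0.57, adjusted p = 0.207). CNT markers there ranged up to 16663 CPM in control and up to 929 in DN libraries, and their part in the result was not tested. Ildr2, a tricellular junction gene, was lower in PT S2-S3 (-0.27 ± 0.073, adjusted p = 0.0487). Among the partner genes in the classes where a claudin was highest, the unpaired difference was -0.62 ± 0.24 for F11r in mitotic cells and 0.53 ± 0.24 for Lsr in arterial EC, and neither passed in either fit.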

How the data were processed

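The deposited files held raw counts of UMIs per gene and cell, which the authors had made with Cell Ranger 3.0.2 on mm10 from Chromium 3′ libraries. No further normalization had been applied to these counts, and 0 sample columns went unused. Both kidneys of a mouse gave 1 library. Barcodes with 200 to 7000 genes and at most 50% mitochondrial UMIs were kept (94436), then 7023 doublets (cells of tubular clusters with a non-tubular marker, or the reverse; mixtures of 2 non-tubular or of 2 tubular types were not removed) and 1058 non-tubular cells over 20% mitochondrial UMIs were dropped. Cells were clustered (scanpy 1.11.5, 2000 variable genes, 30 components, Harmony over libraries, Leiden) without 268 genes, claudins, junction partners and regulators among them, and 38 clusters were named from marker lists; the thresholds of naming were set after the clusters were seen. Counts were summed per library and class with at least 10 cells.

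Sums were tested with edgeR 4.0.16 (R 4.3.3; TMM, filterByExpr, quasi-likelihood, 1 fit per class over its libraries with at least 10 cells, 16 of them except 15 for podocytes and mitotic cells and 13 for peritubular EC, which was tested at 6 weeks only, Benjamini-Hochberg per class, threshold 0.05). The unpaired fit was run on simulated counts of 1 class, the aLOH. The paired fit was not checked in this way. The main fit had no replicate block. Same-numbered control and DN libraries deviated together from their group means (correlations of 0.712, 0.743, 0.522 and 0.659 for female 6 and 12 and male 6 and 12 weeks, 15577 genes), the pairing coming from replicate numbers in the labels. The p-values measure the spread between these libraries. The SE of an edgeR difference was worked back from the F statistic of its test (absolute difference over the square root of F). It is thus approximate, above all at low counts. Neighbouring classes were compared within libraries on log2(CPM + 1) by an exact two-sided sign-flip permutation test. Thinning drew 1000 UMIs per cell and left out shallower cells (294 of 4218 aLOH cells, 2388 of 8199 PT S1 cells, 57 of 859 immune cells). Immune cells with a Cubn or Epcam UMI had been dropped as doublets, so immune shares can understate the background of tubular transcripts. Detection shares by class, and cluster CPM given without a spread, pool the cells of all libraries. They carry no measure of the spread between libraries or barcode sets. Alternatives were DESeq2 1.42.0, other scaling, filters, doublet calls (Scrublet marked 2122 cells, 2.25%), clustering, barcode sets and leaving out libraries. Every claudin, other Cldn genes over 5 CPM, and the 2 genes most like each claudin were named. So were junction partners or regulators that passed in a class where a claudin was highest. Of those with 1 of the 3 largest changes in such a class without passing, F11r and Lsr were named. Others, such as the regulators St14 and Wnk4, were not. Cxadr in IC-A and IC-B and Epcam in PT S1 were named besides. The members and all gene lists were chosen with earlier results of these data known. A result for 1 junction partner gene is not reported here.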

Additional observations from a re-analysis of the deposited data

Results flagged for a closer look

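In 38 sets of 4 libraries (a claudin in its highest class, in 1 genotype at 1 age), 2 held a library far from the other 3, and chance alone flags about 1 set in 20. Cldn2 in PT S2-S3 was 348.5 CPM in control female 6 weeks replicate 2, with the nearest library of its group at 176 CPM. Cldn4 in PC was 234 CPM in DN female 6 weeks replicate 1, with the nearest at 102 CPM.

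The 18 unnamed clusters of at least 50 cells (19593 cells) entered no comparison, and in some a claudin was above its highest named class. Cluster 35 (516 cells, 24.03% from control kidneys) held 49.3 CPM of Cldn1, against 23.6 in podocytes, and 249.7 CPM of Cldn2, against 219.8 in PT S2-S3. Cluster 39 (395 cells) held 94.8 CPM of Cldn3, against 83.4 in mitotic cells, and 345 CPM of Cldn7, against 295 in PC. Cluster 49 (128 cells) held 51.7 CPM of Cldn1 and 143 CPM of Cldn3. Clusters 39 and 49 stayed unnamed because a second class scored high beside the first (1.29 beside 1.41 and 4.01 beside 4.77). Cluster 35 stayed unnamed because marker genes of another class were among its leading genes. Cluster 39 had a median of 30469 UMIs per cell, against 16266.5 in IC-B and 8466 in PC. Whether these clusters mix cell types was not tested. These are summed values with no test, from 180 combinations of claudin and cluster.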

How the results depend on the processing

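The claudin counts passing rose from 0 under some settings, and the cause was not tested. With no filter every gene with any count was tested, so those counts come from more tests than the 79 or 78 of the main fit. With the replicate block, 1.22%, 2.98% and 5.23% of all gene tests passed at 6 weeks, 12 weeks and for the mean of both ages. At 6 weeks there were 6 with no filter on low counts and 3 with the replicate block, at 12 weeks 10 and 5, with 2 when the barcode set was a term and 1 in the larger barcode set alone. For the mean of both ages there were 10 with no filter, 12 with the replicate block, 4 by DESeq2, 3 each with the barcode-set term and without doublet removal, and 1 each with RLE factors and Scrublet. The difference between ages gave 3 and the age effects 4 (control) and 2 (DN) with no filter, and the control age effect 1 in the larger set. Leaving out 1 library gave 0 to 1, 0 to 1 and 0 to 3 for the DN comparisons (3 without control male 6 weeks replicate 1), 0 to 0 for the difference, 0 to 1 and 0 to 0 for age. Leaving out pairs, the paired fit passed 8 to 13. Of the 40 neighbouring steps, 20 to 24 passed without 1 library, and no passing step reversed under the alternatives run. The Cldn10 and Cldn16 difference was -16.8 points at 2000 UMIs. Counts over all genes moved as well. At 6 weeks 150 of 154036 passed, against 454 by DESeq2, 500 with the barcode-set term, 1843 with no filter and 274 in the larger set. With the replicate block 1884 of 154318 passed. At 12 weeks 566 of 150133 passed, against 1146, 1428 and 2949 for the first 3 of these settings and 4488 of 150374 with the block. For the mean of both ages 1411 of 150133 passed, against 2509, 3236, 4823 and 2273, and 7868 of 150374 with the block. Without 1 library these 3 counts were 64 to 164, 219 to 712 and 895 to 1614. The difference between ages passed 0, against 1 by DESeq2, 3 with the barcode-set term, 413 with no filter and 53 with the block. The age effects passed 0 in each genotype, against 25 in control and 18 in DN by DESeq2 and 1019 and 540 with no filter. No named claudin result reversed its direction, and the replicate block changed no claudin call other than those given beside the results. The smaller barcode set had 10510855 to 21728793 UMIs, which limits low claudins such as Cldn1 in podocytes (195 UMIs in all).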

Other observations

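Of the other 25 genes whose symbol begins with Cldn, Cldn15 is best known as a cation pore of the intestine. It held 284 CPM in peritubular EC, 204 in arterial EC, 192 in glomerular EC and 71.3 in mesangial cells. In mesangial cells the 8 control libraries ranged over 17.6, 45.7 and 61.0 CPM (lowest, median and highest) and the 8 DN libraries over 81.6, 94.3 and 122, with no overlap. Smooth muscle and renin markers (8 of 8 detected) summed to 17.6, 112 and 479.7 CPM in control and to 276, 583 and 4344 in DN libraries of the mesangial class, and parietal epithelial markers (5 of 5) to 349, 598 and 1070 in control and to 833, 1564 and 1820 in DN; their part in the result was not tested. Cldn15 was higher in DN by 1.15 ± 0.15 on the log2 scale for the mean of both ages (edgeR adjusted p = 0.000225) and by 1.54 ± 0.21 at 12 weeks (adjusted p = 0.000779). It was higher in smooth muscle and renin cells too (1.31 ± 0.28, adjusted p = 0.0348). In both classes the difference between ages was not resolved (edgeR adjusted p > 0.99 in each). Of 38 tests of other Cldn genes for the mean of both ages, 2 passed in the unpaired edgeR fit, both of them Cldn15. In the paired fit with the replicate block 5 passed (3 higher, 2 lower in DN). The shares of all gene tests passing were 0.94% in the unpaired and 5.23% in the paired fit. The paired fit added Cldn14 in IC-A (0.82 ± 0.22, adjusted p = 0.0189; unpaired 0.741), Cldn18 in PT S2-S3 (-1.34 ± 0.32, adjusted p = 0.0303; unpaired 0.0828) and Cldnd1 in mesangial cells (-0.35 ± 0.097, adjusted p = 0.0160; unpaired 0.423). Cldn14 and Cldn18 were low, and Cldn18, named because it passed, was under 5 CPM in every class.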
